A study of Macaca mulatta with 18 samples.

Results

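Hub anchors are 10 kb bins of the rhesus macaque genome from which several chromatin loops fan out. They were chosen by the measured GZ loop calls, as the autosomal bins that served as an anchor, on either side, of 3 or more loops spanning up to 2 Mb in the loop list of the tissue labelled GZ. Of 14780 autosomal bins that anchored any such loop, 1921 (13.0%) were hubs, 3512 (23.8%) anchored 2 loops and 9347 (63.2%) anchored 1 loop. All samples came from wild-type fetal brain at embryonic day 84, in which 2 kinds of tissue, GZ and CP, were compared; the labels used here do not spell out the abbreviations. Hi-C, which counts how often pairs of regions lie close together, had 3 libraries per tissue joined into 1 deposited loop list and 1 boundary list per tissue. CTCF ChIP-seq and DNase-seq, which mark CTCF-bound and open chromatin, had 1 library per tissue. The identity of the tissues was not checked against marker genes here.

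A loop anchor is a place where contacts with a distant region pile up above the local background. In vertebrates many anchors are bound by CTCF, a zinc finger protein that halts the ring-shaped cohesin complex while cohesin reels in DNA. The direction of the CTCF motif decides from which side cohesin is halted, so a CTCF site typically loops toward one side. Other anchors join enhancers, promoters or Polycomb-covered developmental genes. Domain boundaries, read from the insulation of contacts across a position, often hold CTCF sites as well. Motif direction and the genes at the anchors were not analysed here, and no anchor sequence is shown, because no genome of the build of the lists (rheMac8) was used.

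The GZ loop list chose the hubs. The number of GZ loops, their partners, direction and contact strength in GZ are therefore descriptions of that choice. CP loops, CTCF peaks, DNase peaks and CP boundaries come from other libraries. With 1 list per tissue, and with bins that are not replicates of a condition, no test was made between bins or between tissues. The 95% intervals given are Wilson intervals for shares, Newcombe intervals for differences of shares and binomial order-statistic intervals for medians, and they cover counting error only. The lists of autosomal loops up to 2 Mb held 11424 loops in GZ and 6974 in CP, resting on a median of 97 and 84 observed contacts per loop. The CTCF lists held 30883 peaks in GZ and 22044 in CP, and the DNase lists 83028 and 71800. The read depth of the CTCF and DNase libraries is unknown, and the longer GZ lists set a higher ceiling for GZ than for CP throughout.

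Few hubs had many loops. Exactly 3 GZ loops were anchored in 1374 hubs, 4 in 426, 5 in 90, 6 in 21, 7 in 7, 8 in 2 and 10 in 1. In the CP list 538 bins reached 3 loops, and the largest number in a CP bin was 7. On either side of the threshold, bins with 3 and bins with 2 GZ loops held a GZ CTCF peak in 88.2% and 81.6% and a GZ DNase peak in 91.6% and 85.5%. A CP CTCF peak lay in 82.5% and 71.7% of them, a CP loop in 88.5% and 72.6%, and 3 or more CP loops in 15.2% and 2.42%. For the CP loop shares, bins with 3 loops have more GZ loops that can recur in CP than bins with 2. Hubs made up between 6.68% of the anchor bins (chromosome 19) and 16.7% (chromosome 12), and their density ran from 4.201 per 10 Mb on chromosome 5 to 10.7 per 10 Mb on chromosome 10. The nearest other hub started a median of 360 kb away (quartiles 160 and 750 kb), and 61 hubs (3.18%) touched another hub bin.

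**Figure D1:**
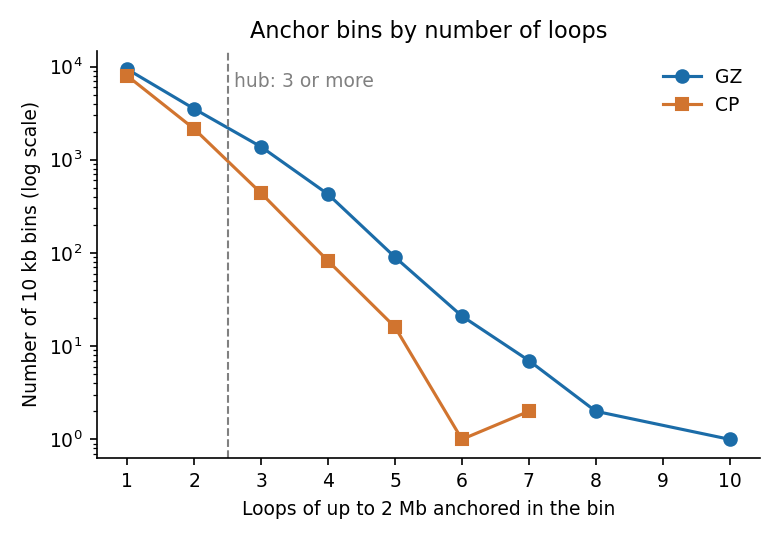
Number of 10 kb anchor bins (y axis, log scale) against the number of loops of up to 2 Mb anchored in the bin (x axis) in the GZ and CP lists. Bin numbers drop from 9347 with 1 GZ loop to 1 with 10 GZ loops, and the CP points lie below the GZ points at every number of loops.

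Most GZ hubs were also loop anchors in CP. A CP loop was anchored in the same bin at 1728 of 1921 hubs (90.0%, interval 88.5% to 91.2%), against 4113 of 9347 bins used once (44.0%, 43.0% to 45.0%) and 56.8% of all anchor bins. The difference between hubs and bins used once was 45.95 percentage points (44.2 to 47.6). A hub has 3 or more GZ loops that can recur in CP, and a bin used once has 1. A difference in this direction is therefore built into the choice of hubs. Allowing the CP anchor to lie 1 bin away gave 94.0% of hubs and 62.0% of bins used once. The number of CP loops varied among hubs, and a mean below that of GZ is set by the choice of hubs and the shorter CP list. The mean was 3.37 GZ loops and 1.75 CP loops per hub, and 193 hubs had no CP loop, 611 had 1, 709 had 2 and 408 had 3 or more. In bins used once the mean was 0.493 CP loops, and 34 of these bins (0.364%) had 3 or more CP loops.

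Seen from the other tissue, the CP hubs were mostly GZ hubs too. Of the 538 CP hubs, 408 were GZ hubs (75.8%, 72.0% to 79.3%) and 527 were a GZ anchor, while the same 408 were 21.2% of the GZ hubs. The share of bins with 3 or more CP loops was 15.2% for bins with 3 GZ loops, 31.9% for 4 loops and 52.1% for 5 or more. A bin with more GZ loops has more that can recur in CP. Counted per loop end, the share of loops found in CP did not rise, with 53.5%, 51.6% and 49.2% in these bins. Loops at hubs were found in CP about as often as other loops. Of the loops counted at their hub ends, 52.6% had a CP loop with both anchors within 1 bin (51.4% to 53.8%), against 48.9% (47.9% to 49.9%) at bins used once. Every GZ loop of the hub was found in CP at 240 hubs (12.5%), and none was at 157 (8.17%). Over all anchor bins these shares were 39.6% and 38.8%, and in bins used once 48.9% and 51.1%. Both shares depend on the number of loops in a bin, so they are not a trait of hubs.

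Hubs looped mainly toward 1 side. Of 1921 hubs, 785 (40.9%) were the left anchor of all their GZ loops, so that all partners lay at higher coordinates, 730 (38.0%) were the right anchor of all, and 406 (21.1%) were used on both sides. With touching anchor bins joined into 1 locus, 35.2% were used on both sides. Use on both sides was found for 12.2% of bins with 2 loops, 18.3% with 3, 24.4% with 4 and 36.7% with 5, so that the share was larger in bins with more loops. Among the hubs used on both sides, 359 of 406 (88.4%) had 1 loop on the lesser side and the remainder on the other.

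The side was nearly always the same in CP. At the 708 left-only hubs with a CP loop in the same bin, 1333 of 1345 CP loops (99.1%, 98.4% to 99.5%) also ran to the right. At the 667 right-only hubs with a CP loop, 1305 of 1314 CP loops (99.3%, 98.7% to 99.6%) ran to the left. In bins used once the shares were slightly lower, with 97.3% of CP loops at left anchors (96.6% to 97.9%) and 97.2% at right anchors (96.5% to 97.8%) on the GZ side. Most CP loops thus kept the GZ side in both kinds of bin. Of the 353 hubs with both sides in GZ and a CP loop, 122 (34.6%) had CP loops on both sides as well.

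CTCF sat in most hub bins and in fewer bins used once. A GZ CTCF peak overlapped 1712 of 1921 hubs (89.1%, 87.6% to 90.4%) and 5390 of 9347 bins used once (57.7%, 56.7% to 58.7%), against 67.4% of all anchor bins. The CP peaks, which come from a separate library, overlapped 83.8% of hubs and 48.3% of bins used once. The difference between hubs and bins used once was 31.5 percentage points for GZ peaks (29.7 to 33.1) and 35.5 for CP peaks (33.5 to 37.4). With bins widened by 10 kb on each side the differences were 15.97 and 21.7 points, since 95.7% of hubs and 79.7% of bins used once had a GZ peak that near. At 1593 hubs (82.9%) both tissues had a peak, at 119 (6.19%) GZ alone, at 16 (0.833%) CP alone and at 193 (10.0%) neither.

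Hubs also held more CTCF peaks, and their strongest GZ peak had a somewhat higher fold. The mean was 1.17 GZ peaks per hub and 0.680 per bin used once, and 448 hubs (23.3%) held 2 or more, against 8.85% of bins used once. The strongest GZ peak of a bin, by MACS2's fold enrichment as the authors deposited it, had a median fold of 21.4 in hubs with a peak (20.8 to 21.9) and 18.2 in bins used once with a peak (17.95 to 18.45). The quartiles were 15.8 and 28.0 in hubs and 12.0 and 25.1 in bins used once, so the distributions overlapped widely. In the CP list, whose folds are lower, the medians were 7.84 and 7.45. A highest value is larger where a bin holds more peaks. Among bins with exactly 1 GZ peak the medians were 20.6 in 1264 hubs (20.3 to 21.3) and 17.5 in 4563 bins used once (17.1 to 17.96), and among bins with exactly 1 CP peak 7.48 (7.34 to 7.72) and 7.30 (7.19 to 7.39). Use on both sides was least frequent in hubs with exactly 1 GZ CTCF peak. It was found in 15.3% of the 1264 hubs with 1 GZ CTCF peak (13.5% to 17.4%), in 31.5% of the 448 with 2 or more (27.3% to 35.9%) and in 34.0% of the 209 with none (27.9% to 40.6%). Hubs with 2 or more peaks also had more GZ loops, with a mean of 3.55 against 3.32 with 1 peak and 3.31 with none. Bins with more loops were more often used on both sides.

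**Figure D2:**
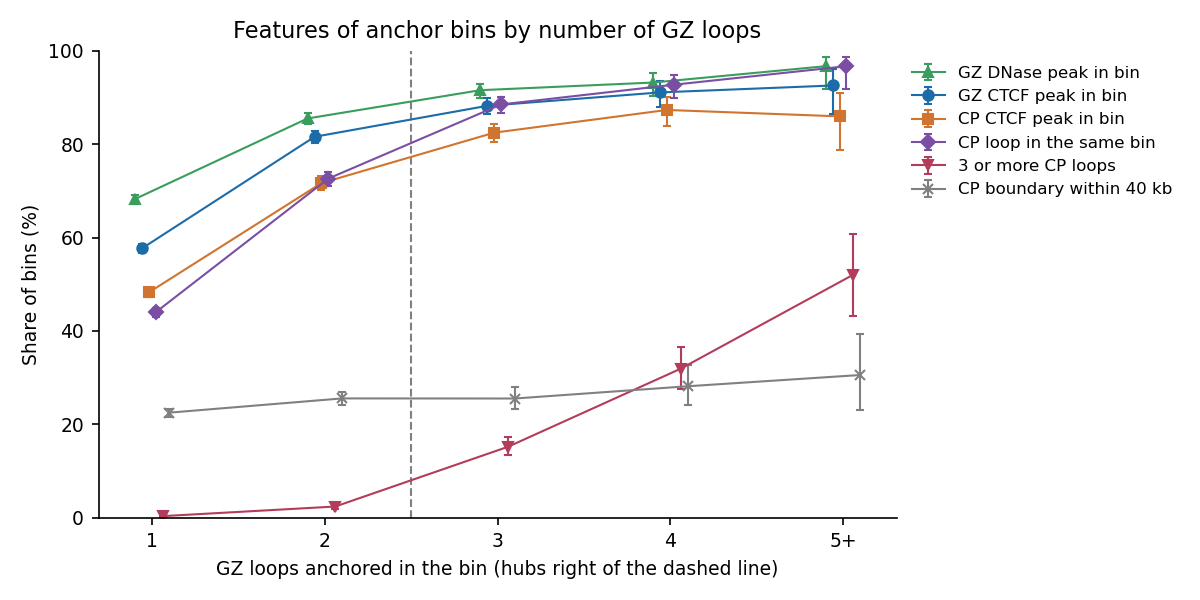
Share of bins (y axis, %) with each feature against the number of GZ loops anchored in the bin (x axis), with 95% Wilson intervals as bars. GZ CTCF and GZ DNase peaks lie in 57.7% and 68.2% of bins with 1 loop and in 92.6% and 96.7% of bins with 5 or more, while the share near a CP boundary runs from 22.5% to 30.6%.

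Open chromatin was likewise listed in more hubs than bins used once. A GZ DNase peak lay in 1772 hubs (92.2%, 91.0% to 93.4%) and in 68.2% of bins used once, and a CP DNase peak in 88.7% and 63.7%. The differences were 24.0 points in GZ (22.4 to 25.5) and 24.95 in CP (23.2 to 26.6). Within bins widened by 10 kb they were 8.39 and 10.5 points. Neither a GZ CTCF peak nor a GZ DNase peak was listed in 98 hubs (5.10%), against 2476 bins used once (26.5%). For DNase peaks away from CTCF the shares were close: a GZ DNase peak overlapping no GZ CTCF peak lay in 30.4% of hubs (28.4% to 32.5%) and in 30.9% of bins used once. The highest GZ DNase score, HOMER's peak score as deposited, had a median of 34.5 in hubs with a peak (33 to 35.5) and 29.0 in bins used once with a peak (28.5 to 30.0). Among bins with exactly 1 GZ DNase peak the medians were 30.5 in hubs (29.5 to 32) and 26 in bins used once (25.5 to 26.5). The highest CP DNase score had medians of 33 in hubs with a CP peak and 27.5 in bins used once with a CP peak. Among bins with exactly 1 CP DNase peak the medians were 30 (28.5 to 31.5) and 24 (23 to 24.5).

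**Figure D3:**
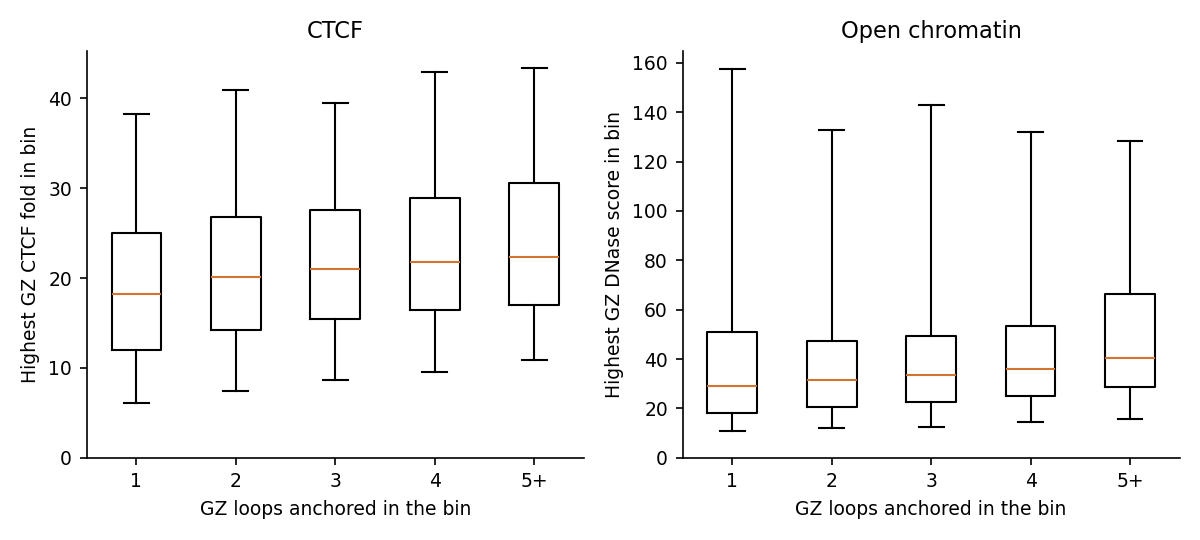
Highest GZ CTCF fold enrichment (left) and highest GZ DNase score (right) of a bin against the number of GZ loops anchored in it, for bins with a peak; boxes span the quartiles with the median as a line, and whiskers span the 5th to 95th percentile. Medians run from 18.2 to 22.3 for CTCF fold and from 29.0 to 40.5 for DNase score between bins with 1 loop and bins with 5 or more, with wide overlap of the boxes.

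Hubs were somewhat more often near domain boundaries than bins used once, and about as often as bins with 2 loops. A CP boundary, called on 40 kb bins, lay within 40 kb of 508 hubs (26.4%, 24.5% to 28.5%) and of 22.5% of bins used once, a difference of 3.92 points (1.82 to 6.11). GZ boundaries, which rest on the same Hi-C libraries as the rule, gave 27.9% and 23.6%. In bins with 2 loops the shares were 25.6% for CP and 28.2% for GZ boundaries, so this nearness was not particular to hubs. With loops of up to 1 Mb the differences were 1.87 points for CP and 2.12 for GZ, with intervals that included 0. With the GZ list cut to the length of the CP list they were 7.68 and 8.31, and with touching anchor bins joined or boundaries within 80 kb the GZ difference was 6.84 and 6.85. With hubs of 4 or more loops the CP difference was 6.18. The median distance to the nearest CP boundary was 140 kb from hubs and 180 kb from bins used once.

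Hubs used on both sides were less often near a listed boundary than hubs used on 1 side. A CP boundary lay within 40 kb of 37.5% of left-only hubs (34.1% to 40.9%), 21.5% of right-only hubs (18.7% to 24.6%) and 14.04% of hubs used on both sides (10.996% to 17.8%). The median distance was 90 kb for left-only hubs, 110 kb for right-only hubs and 310 kb for hubs used on both sides. The order of left-only and right-only hubs rested on the listed boundary position. With every CP boundary moved 20 kb to the left, an alternative chosen after seeing the data, the shares were 31.5% for left-only and 30.5% for right-only hubs, and 14.04% for hubs used on both sides. Whether the listed positions carry a shift was not tested. Among hubs centred within 200 kb of a CP boundary centre, 379 of 495 left-only hubs (76.6%) lay to its right and 52 of 456 right-only hubs (11.4%) did. Left-only hubs lay a median of 45.0 kb to the right of the boundary centre, and right-only hubs a median of 85.0 kb to its left, where the offset was -85.0 kb (-95.0 to -75.0). With the boundaries moved 20 kb to the left the medians were 65.0 and -65.0 kb, so the inequality of the listed offsets cannot be read as a property of the hubs. Anchors used once showed the same order with smaller offsets, 35.0 kb for left and -55.0 kb for right anchors.

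**Figure D4:**
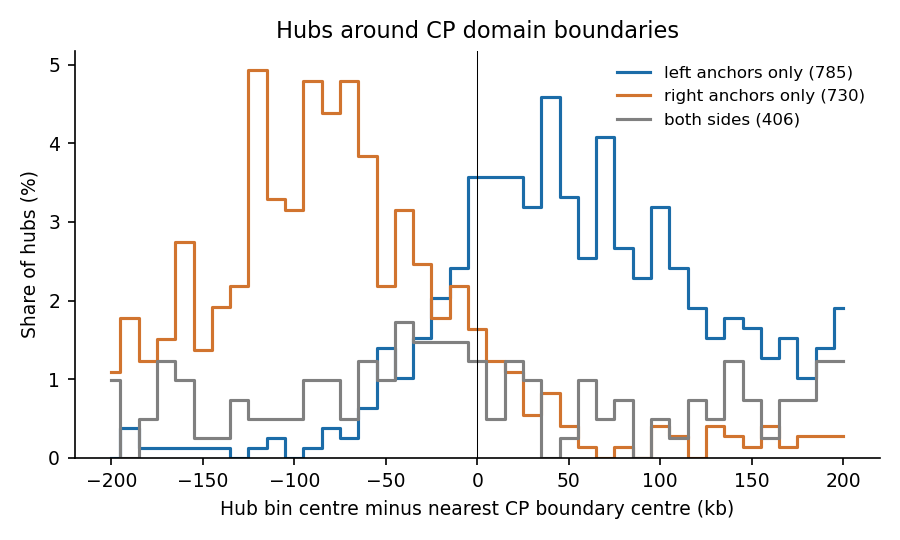
Share of hubs (y axis, %) by the offset of the hub bin's centre from the centre of the nearest CP boundary (x axis, kb, 10 kb steps), for left-only, right-only and both-sided hubs. Left-only hubs pile up to the right of the boundary and right-only hubs to the left, with median offsets of 45.0 and -85.0 kb, against -15.0 kb for hubs used on both sides.

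Hubs took part in many of the listed loops. Loops with a hub at 1 or both ends numbered 5466 of 11424 (47.8%), and 1011 of these joined hubs to each other. Another hub was among the partners of 1227 hubs (63.9%), a share that rests on their having 3 or more partners each. Counted per loop end, the partner was a hub for 31.2% of 6477 ends at hubs (30.1% to 32.4%) and 26.5% of 9347 ends at bins used once (25.6% to 27.4%). In 638 hubs (33.2%) a pair of the partners was itself joined by a GZ loop, which closes a triangle of contacts. Triangles were found at 24.8% of left-only, 27.8% of right-only and 59.1% of both-sided hubs, and at 44.4% of the 408 bins that were hubs in both tissues. Bins with more loops have more pairs of partners, and the share was 12.8% at 2 loops, 27.7% at 3, 42.7% at 4 and 62.0% at 5 or more. Both-sided hubs (mean 3.58 GZ loops) and the 408 bins (3.71) had more loops than left-only (3.30) and right-only hubs (3.33). When touching anchor bins were joined into 1 locus before counting, triangles were found at 60.1% of hub loci. After joining partners within 20 kb of each other, all 1921 hubs still had 3 or more. Whether the loop caller had already merged loops that close was not checked, so this share may be fixed by the calling. After joining partners within 50 kb, 93.8% of hubs still had 3 or more.

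The loops of a hub covered a wide range of lengths. The median hub had a shortest loop of 230 kb, a median loop of 520 kb and a longest loop of 880 kb, while the median loop of bins used once was 320 kb. At the 1515 hubs used on 1 side, neighbouring partners lay a median of 220 kb apart. At these hubs the longest loop ended in another hub more often than the shortest did (38.6% against 20.1%) and was found in CP less often (44.0% against 57.6%). These loops differ in length by choice, with medians of 890 and 240 kb. Among loops with no hub end, 51.1% of those up to 250 kb and 46.6% of those over 1000 kb were found in CP. The length classes between had 53.0% and 49.2%. A lower share in long loops was thus not particular to hubs. The partner bin held a GZ CTCF peak for 82.9% of the longest and 77.3% of the shortest loops. Both ends held a GZ CTCF peak in 81.4% of the 1011 hub-to-hub loops (78.9% to 83.7%) and in 31.5% of the 2057 loops between bins used once (29.5% to 33.5%). Over all loops the share was 59.3%. A difference in this direction follows from the larger share of hub bins that hold a CTCF peak.

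Contact strength was similar with and without a hub end once length was taken into account. Observed over expected contacts, with the expectation from the donut-shaped neighbourhood of the loop, had a median of 3.05 for loops with a hub end and 2.88 for loops without. Loops of 500 to 1000 kb had medians of 3.18 with and 3.19 without a hub end, and loops of up to 250 kb 2.64 and 2.51. For loops of over 1000 kb the order was the other way, with 3.45 and 3.57. At the 2108 loops with a hub end that were called in the same bins in CP, the ratio was 3.52 in GZ and 3.05 in CP. Dividing the GZ by the CP value gave 1.15 at the median loop and more than 1 at 81.1% of them, against 1.12 and 73.5% for loops with no hub end, and 1.06 and 62.97% for the 667 of those between bins used once. The GZ loops rest on more contacts than the CP loops, and the part of depth in this ratio was not tested. Hubs were also chosen by GZ loop calls, which rest on GZ contacts above the local background. The GZ to CP ratio at hub loops is therefore partly set by that choice.

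A small group of hubs had no CTCF peak in either list within 10 kb. They numbered 73 (3.80%), against 1768 bins used once (18.9%). Of these hubs 38 were used on both sides (52.1%, 40.8% to 63.1%). A GZ DNase peak lay in 46 of them (63.0%) and in 43.9% of the bins used once that lacked CTCF in the same way, and their highest scores had medians of 70.5 (59.0 to 127) and 41.5 (37.0 to 47.0). Where open chromatin was present in such hubs, it thus scored above the median of 34.5 over all hubs with a peak. The median loop of these hubs was 360 kb, shorter than the 520 kb of all hubs. It was longer than the 260 kb of the bins used once that lacked CTCF in the same way. A CP loop was anchored in 56 of the 73 (76.7%), and 27 (37.0%) had no GZ DNase peak either.

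The hub with the most GZ loops lay at chr9:73130001-73140000, with 7 partners to the left and 3 to the right at distances of 190 to 1030 kb. It held 2 GZ CTCF peaks of fold 18.0 and 6.26 and 1 GZ DNase peak of score 57.5. In CP the bin anchored 1 loop, although it held 2 CP CTCF peaks (fold 11.03 and 5.81) and 2 CP DNase peaks (scores 43.5 and 23.0). The loop shared with CP joined it to a bin 820 kb to the left, itself an anchor of 5 GZ loops, with 111 contacts observed and 20.4 expected in GZ. Its observed over expected ratio was 5.45 in GZ and 3.79 in CP. The other 9 loops of this hub had ratios of 2.02 to 3.15, below that of the shared loop.

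Bins with 8 GZ loops lay at chr14:76250001-76260000 and chr6:122170001-122180000, each with 4 partners on either side. The bin on chromosome 14 overlapped or touched a GZ boundary, held 2 GZ CTCF peaks (fold 16.4 and 9.61) and anchored 3 CP loops. The bin on chromosome 6 held no CTCF peak within 10 kb in either tissue. It overlapped or touched a boundary in both lists. It held 3 GZ DNase peaks of score 127, 73.0 and 30.5 and 2 CP peaks of score 54 and 50. Its 8 loops rested on 45 to 106 contacts, with ratios of 2.34 to 3.54, and 2 of them were found in CP. These hubs thus had equal numbers of loops, one with and one without CTCF.

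The 7 hubs with 7 GZ loops differed in direction and content. The bin chr7:46450001-46460000 was left-only, with partners 890 to 1990 kb to the right, 2 GZ CTCF peaks of fold 40.1 and 26.8, and a boundary 10 kb away in both lists. All 7 of its partners held a GZ CTCF peak, and its 4 CP loops also ran to the right. The bin chr10:67350001-67360000 had 6 of its 7 loops in CP and 1 GZ CTCF peak of fold 27.2; its loop to a bin 540 kb to the left had 217 contacts observed against 8.32 expected, a ratio of 26.1 in GZ and 26.8 in CP. The bin chr6:47430001-47440000, left-only, overlapped or touched a boundary in both lists but held no CTCF or DNase peak in either tissue. Within 10 kb of it lay 1 GZ CTCF peak. The bin chr6:85610001-85620000, right-only, had 3 GZ DNase peaks (73.0, 64.0 and 51.0) and no CTCF peak inside the bin, with 4 GZ CTCF peaks within 10 kb of it.

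Among the remaining hubs with 7 loops, chr7:13340001-13350000 had 6 partners to the left and 1 to the right, and a GZ CTCF fold of 9.36 below its CP fold of 12.5, although folds in the GZ list run higher. The bin chr13:5630001-5640000 overlapped or touched a boundary in both lists and had 1 of its 7 loops in CP. The bin chr8:99670001-99680000 combined a weak GZ CTCF peak (fold 3.92) and no CP CTCF peak in the bin with a GZ DNase peak of score 224.5, and 3 of its 7 loops were found in CP.

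**Figure D5:**
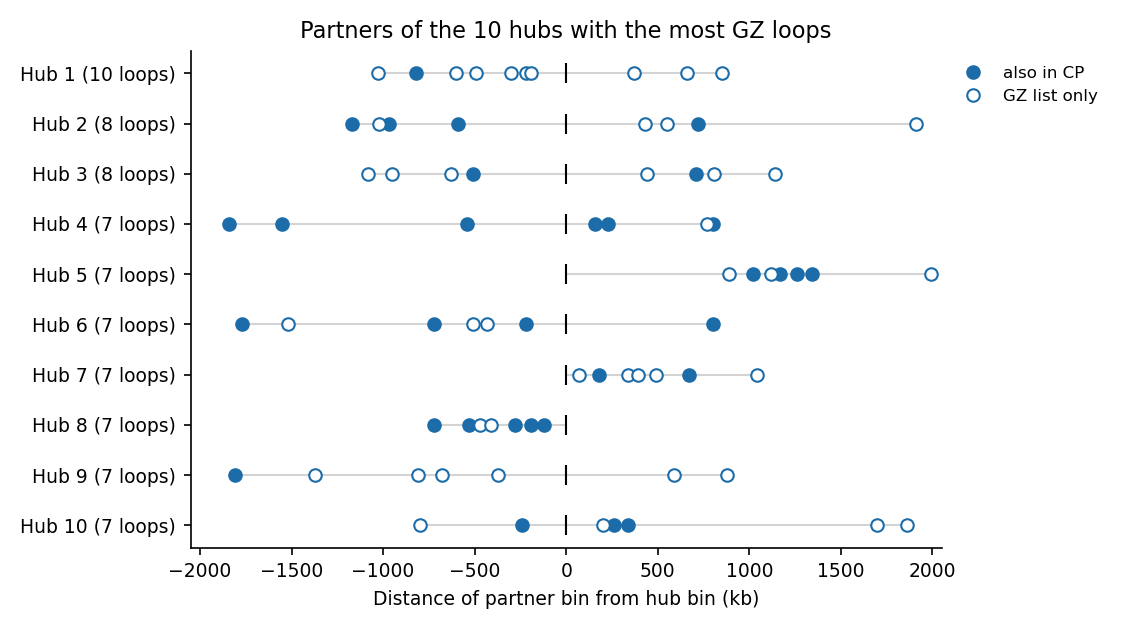
Partners of the 10 hubs with the most GZ loops, in the order named by loops, CP loops and contacts; the x axis is the distance of the partner bin from the hub bin (kb), and filled points mark loops found in CP within 1 bin. Hub 1, with 10 loops, has 1 filled point, Hub 4 has 6 of 7, and Hubs 5, 7 and 8 have partners on 1 side.

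A loop between named hubs joined chr6:85080001-85090000 and chr6:85610001-85620000, 530 kb apart. It had 284 contacts observed and 36.2 expected in GZ, a ratio of 7.84, and a ratio of 7.36 in CP. Neither end held a CTCF peak in its bin in either tissue. Within 10 kb, however, each tissue had 1 CTCF peak at chr6:85080001-85090000 and 4 at chr6:85610001-85620000. The first of these bins was among the 3 hubs with the most CP loops, with 4 loops in GZ and 6 in CP. The others were chr2:56340001-56350000 and chr12:23800001-23810000, each with 4 GZ and 7 CP loops on the same side. The bin on chromosome 2 held no CTCF or DNase peak, and its GZ loops, 1670 to 1950 kb long, had ratios of 8.74 to 57.6 with expected contacts of 2.71 to 5.23. The bin on chromosome 12 had GZ ratios of 2.91 to 4.198, against quartiles of 2.47 and 3.76 over all loops.

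The hubs with the strongest GZ CTCF peaks had CP loops too. At chr20:16300001-16310000 the GZ fold was 80.04 and the CP fold 10.7, and 3 of its 4 loops were found in CP. At chr1:163290001-163300000 the GZ fold was 76.7 and all 3 loops were found in CP. At chr13:45220001-45230000 the GZ fold was 70.2 and 2 of 3 loops were found in CP. The hubs with the highest GZ DNase scores had no CP loop in the bin. At chr8:64810001-64820000 (score 367.5 in GZ and 185.0 in CP), chr8:72210001-72220000 (350.5 and 136.0) and chr7:81670001-81680000 (349.5 and 194.0) 0, 1 and 0 of their 3, 4 and 3 loops had a CP loop within 1 bin. The first held no CTCF peak within 10 kb, the second a CP peak of fold 4.43 in the bin, and the third a GZ peak of fold 8.70. These bins were named for extreme values and do not describe hubs at large.

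Hubs without a CP loop in the same bin numbered 193, and 78 of them had one within 1 bin. Of these hubs 80.8% held a GZ CTCF peak and 75.1% a CP CTCF peak, against 89.1% and 83.8% of all hubs. The most GZ loops among them was 5, in 4 bins, of which 3 were right-only and 1, at chr5:97270001-97280000, was used on both sides. The bin chr8:17630001-17640000 had 3 of its loops in CP once 1 bin of tolerance was allowed. For chr4:39470001-39480000 and chr8:139620001-139630000 no loop was found in CP, although a CTCF peak lay in both bins in both tissues, with GZ folds of 20.0 and 65.9 and CP folds of 9.98 and 7.05. CTCF binding was therefore listed in CP at these bins without a listed CP loop.

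Further left-only and right-only hubs with many loops varied in the same way. The left-only bin chr14:33720001-33730000 had 6 GZ loops, 2 CP loops and a strongest GZ CTCF fold of 36.6. The right-only bins chr12:57850001-57860000 and chr14:1970001-1980000 had 6 GZ and 5 CP loops each. The bin at chr14:1970001-1980000 held 4 CTCF peaks in each tissue, with GZ folds of up to 32.8, and its 6 partners each held a GZ CTCF peak. Among the hubs without CTCF within 10 kb, chr8:74910001-74920000 had 6 GZ loops on both sides and GZ DNase scores of 72.0, 32.5 and 20.0. The bin chr3:118360001-118370000 had 5 loops to the left and no GZ DNase peak, and 3 of its loops were found in CP.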

How the data were processed

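The members, features and lists were chosen with earlier results of these data known. The loop lists were made with HiCCUPS at 10 kb, per the labels, 1 list for the 3 Hi-C libraries of a tissue, taken as pooled. Their contact counts and a signal for expected contacts around each loop are per the file headers. Boundary scores on 40 kb bins of rheMac8 and HOMER peak scores of DNase peaks 147 bp wide were deposited by the authors. The CTCF fold enrichment ratio and −log10 q are MACS2 narrowPeak columns deposited by the authors; peak names hold the word merge. The sources used here give no tool versions or filters; a series note says that Hi-C contact files and runs were replaced or added later. RNA values and CTCF input samples were not used here.

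Loops were counted per 10 kb bin in Python 3.11.15 with pandas 2.3.3, on 20 autosomes, for spans up to 2 Mb. A peak was in a bin when it overlapped by 1 bp. A loop counted as found in CP if each anchor was at most 1 bin off. Boundary distances run from bin edge to boundary edge, so bins that overlap a boundary and bins that only touch it are not told apart. Intervals are from scipy 1.17.1. Counting was tested on made-up lists with known answers. Named bins are the 10 with the most GZ loops (ties by CP loops, then contacts) and the 3 at the top of each of the other lists: CP loops, CTCF fold, DNase score, no CTCF within 10 kb, left-only, right-only and no CP loop. Boundary offsets within 200 kb, CTCF number by side values by loop end, bins with equal peak numbers and moved boundaries were added after seeing the data. Alternatives were other loop, span, peak, boundary and partner limits, joined anchors, a GZ list of the CP length, and hubs set by CP.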

Additional observations from a re-analysis of the deposited data

How the results depend on the processing

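No paired analysis was possible because each tissue has 1 pooled loop list and 1 CTCF and DNase list, and for the same reason no replicate was left out. Of 111 values for 14 results, 58 stayed within the interval of the value given (or within 1.5 times for the count), 53 moved outside it and none changed sign; all 70 differences between hubs and bins used once stayed above 0, and 2 had intervals that included 0, both for boundaries with loops up to 1 Mb. Shares of hubs minus bins used once are in percentage points below. For CP loops the direction of the difference is built into the choice of hubs, which have more GZ loops that can recur. The causes were not tested.

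With 4 or more loops, hubs numbered 547, and the differences were 49.6 for any CP loop, 36.0 for 3 or more CP loops, 33.7 and 38.8 for GZ and CP CTCF, 25.7 and 28.3 for GZ and CP DNase and 6.18 for CP boundaries; the median DNase score was 37.5, 28.3% were used on both sides and 47.0% closed a triangle. With the GZ list cut to the CP length, hubs numbered 819, and these differences were 32.9, 33.4, 25.1, 28.4, 22.2, 22.4 and 7.68, with 8.31 for GZ boundaries, 15.8% on both sides and 23.4% in triangles. With hubs set by the CP list and the tissues exchanged, hubs numbered 538, with 24.5 for any GZ loop, 68.1 for 3 or more, 25.6 for GZ CTCF, 22.5 for GZ DNase, a median CP CTCF fold of 8.05 and 28.1% in triangles. With loops up to 1 Mb the CTCF differences were 29.2 and 33.2. With bins widened by 10 kb they were 15.97 and 21.7, DNase 8.39 and 10.5, the median CTCF fold 22.6 and the DNase score 40. With stricter peaks GZ CTCF was 33.2, DNase 29.1 and 28.3, and the median DNase score 38.0. With touching anchors joined, 3 or more CP loops gave 25.9, CP CTCF 37.4 and GZ boundaries 6.84; medians were 22.2 for CTCF fold and 37.0 for DNase score, 35.2% were used on both sides, 99.1% kept 3 partners and 60.1% closed a triangle. With boundaries within 80 kb the GZ difference was 6.85, and with partners joined within 50 kb 93.8% kept 3 partners. With the CP anchor within 1 bin, chosen after seeing the data, any CP loop gave 32.0 and 3 or more gave 28.4. With boundaries moved 20 kb left, also chosen after seeing the data, the GZ and CP differences were 4.73 and 4.31. Depth limits what a missing CP loop shows, since the CP list is the shorter.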

Other observations

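The position of CTCF inside the hub bin differed by direction. The summit of the strongest GZ peak lay a median of 432 bp left of the bin centre in 713 left-only hubs (offset -432 bp, interval -668 to -97.0) and 222 bp right of it in 664 right-only hubs (3.00 to 464). In CP the offsets were -470.5 and 136 bp, with an interval of -116 to 396 for the latter. Bins used once had -297 and 254 bp in GZ for left and right anchors. The peaks were not used to choose the hubs, and the cause of the offsets was not tested.

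Hubs with very strong contacts lacked CTCF in the bin. This group was chosen after its values were seen. The median observed over expected ratio was 8 or more at 8 hubs, from 8.47 at chr6:37830001-37840000 to 49.8 at chr6:174630001-174640000, against 3.09 over all hubs. None of the 8 held a GZ CTCF peak in the bin, 5 had no CTCF peak within 10 kb in either tissue, 1 held a GZ DNase peak and 7 anchored a CP loop. Assembly or mapping faults at these bins were not tested.

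Anchoring of loops longer than the 2 Mb limit was similar in hubs and other bins. A GZ loop over 2 Mb was anchored in 4.58% of hubs (3.73% to 5.61%) and 4.86% of bins used once (4.44% to 5.31%), and a CP loop over 2 Mb in 2.24% and 3.06%. Hubs without CTCF within 10 kb had 10.96% in GZ (8 of 73, 5.66% to 20.2%), and bins used once without CTCF within 10 kb had 5.77% (102 of 1768, 4.78% to 6.96%).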
